A study of Homo sapiens with 6 samples.

Results

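The 10 genes described here, ACLY, ACSS2, ACACA, FASN, SCD, ELOVL5, ELOVL6, FADS1, FADS2 and PNPLA3, were chosen by name as genes that make, desaturate, lengthen or handle fatty acids. These genes, and the gene lists set beside them, were chosen with earlier results of these data known. All 10 were in the table of 37902 genes and all 10 were among the 14684 genes tested. They were followed in polyadenylated RNA of ARPE-19, a widely used human line that originated in the retinal pigment epithelium (RPE), the pigmented cell layer that serves the photoreceptors. Parental wild type (WT) cells were compared with a POLDIP2 KO line, with 3 libraries labelled as biological replicates in each group. The KO line came from ARPE-19 transduced with lentivirus carrying SpCas9 and an sgRNA against the POLDIP2 coding sequence and selected with puromycin, and WT is the untransduced parent. Both groups were under regular maintenance and labelled day 3, in medium with fetal bovine serum.

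There was 1 KO line, so the knockout and any other property of that line cannot be told apart, and the p-values measure the spread between cultures of the same 2 lines. The KO line carried indels in only part of its alleles, while the paper reports that a western blot of it showed no POLDIP2 protein. For POLDIP2 itself, the WT libraries 1 to 3 held 3919, 4827 and 4798 normalised counts and the POLDIP2 KO libraries 1063, 1248 and 1143 (log2 fold change -1.97, limma adjusted p = 0.00961), so the libraries match their labels. A normalised count is a read count divided by a factor for the depth of its library, and values of 3 libraries are given below in the order of the replicate numbers. Libraries held 31532797 to 45795509 recovered reads. Of 14 RPE genes, 11 had a mean high enough to be tested, and 2, RPE65 and TTR, were at 0 in every library. The summed RPE genes ranged from 72202 to 82680 normalised counts in WT and 67744 to 89769 in POLDIP2 KO. The 12 fibroblast and mesenchymal genes summed to 165714 to 289833 normalised counts in WT and 180317 to 346759 in POLDIP2 KO. Of the 11 RPE genes tested, 7 were lower and 4 higher in POLDIP2 KO, with a median log2 fold change of -0.21, and of the 10 fibroblast and mesenchymal genes tested, 2 were lower and 8 higher, with a median of 0.28, and limma called 0 in either list. Blocked by replicate number, limma called COL1A1, a fibrillar collagen, higher (log2 fold change 1.49, adjusted p = 0.0436). Replicate 1 stood apart in both lines: TAGLN, an actin-binding protein of contractile cells, had 35183, 2228 and 1425 normalised counts in WT and 51738, 4102 and 5461 in POLDIP2 KO. In bulk RNA, fewer cells that use a gene and less of its RNA per cell cannot be told apart.

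Fatty acid synthesis starts from acetyl-CoA in the cytosol, which is carboxylated to malonyl-CoA and built up into palmitate by a single large enzyme. Elongases then lengthen the chain and desaturases add double bonds, which sets the makeup of membranes and stored triglyceride. Many of these genes are targets of the SREBP transcription factors, which are held in the endoplasmic reticulum by INSIG proteins when sterols are plentiful and which act on promoters together with partners such as NF-Y. The RPE handles much fatty acid, since it takes up photoreceptor outer segments that are rich in polyunsaturated lipids.

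All 10 genes had a lower mean in POLDIP2 KO than in WT, against 50.1% of all tested genes. Since the genes were chosen with earlier results known, this share and those below describe them and are not a test. SCD had the lowest ratio of the means of POLDIP2 KO to WT, at 0.47, followed by FASN at 0.587 and FADS2 at 0.63, and the other 7 lay between 0.717 and 0.83. None of the 10 passed the thresholds of an adjusted p of 0.05 and a fold change of 1.5 by limma, which 0.17% of tested genes passed. At an unadjusted p of 0.05, 6 of the 10 passed, all lower (ACLY, ACACA, FASN, SCD, ELOVL5 and FADS2), against 3.47% of tested genes that passed and were lower. Whether the replicate numbers mark matched cultures is not in the labels, so the fits blocked by that number rest on an assumption. In the blocked limma fit ELOVL6 and FADS1 passed as well, which gives 8 of 10 against 5.58% of tested genes. By DESeq2 on recovered reads, FASN alone passed both thresholds, against 0.944% of genes that passed and were lower. Blocked by replicate number, DESeq2 gave an adjusted p under 0.05 to 5 of the 10, ACLY, FASN, ELOVL6, FADS1 and FADS2, against 1.92% of genes that were lower, and 2 of them, FASN and FADS2, were also past the fold threshold, against 1.44%. The median log2 fold change was -0.44 for the 10 genes and 0.00 for all tested genes. For 4 genes, ACLY, ACACA, FASN and ELOVL5, every POLDIP2 KO library lay below every WT library, against 5.44% of tested genes, and for the other 6 the groups overlapped. An exact permutation test of 3 against 3 libraries cannot give a two-sided p below 0.1, which is the value those 4 genes had.

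The letters around the starts of these genes were read from the promoter windows of RefSeq on GRCh38.p14. Each window is 300 bases, from 250 before to 50 after a gene's start. A link between these letters and the lower values was not tested. There were 13 windows for 8 of the 10 genes, some of them overlapping. The NF-Y box CCAAT, searched on both strands so that ATTGG also counts, lay in 8 of the 13 windows and in 6 genes, ACLY, ACSS2, ACACA, SCD, ELOVL5 and FADS2. It lay in 34.6% of all 35116 windows. That share is per window, and no share per gene was computed, although a gene with more windows has more chances of a match. The overlapping ACLY windows hold the same boxes, which were counted in both. The FADS2 box lies at position 6, after the start. The GC box GGGCGG, bound by Sp1 and searched on both strands, lay in 10 of the 13 windows and in 45% of all windows. The E-box CACGTG lay in 1 of the 13 windows, that of ELOVL5, and in 7.26% of all. A sterol regulatory element of the form TCACNCCAC, on both strands, lay in 0 of the 13 windows and in 1.13% of all, which says only that these letters are not in these windows. In these 13 windows no match of one motif overlapped a match of another, and a match is a description of the sequence and not a bound site. The stretches below lie upstream of RefSeq starts of SCD, the gene with the lowest ratio, and of both enzymes that supply acetyl-CoA. They show the spacing of the boxes, with NF-Y boxes in capitals:
SCD, chr10:100346989-100347066, plus strand: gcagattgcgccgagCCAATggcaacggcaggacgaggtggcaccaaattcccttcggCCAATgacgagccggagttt
ACLY, chr17:41919026-41919102, minus strand: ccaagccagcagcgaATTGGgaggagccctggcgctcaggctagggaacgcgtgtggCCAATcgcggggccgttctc
ACSS2, chr20:34874851-34874885, plus strand: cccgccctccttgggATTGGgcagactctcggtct

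The SCD stretch runs from -244 to -167 relative to the start, with its boxes at -229 and -186. For ACLY, the stretch runs from -80 to -4 relative to the farther upstream of its RefSeq starts, with boxes in opposite directions at -65 and -23. The single box shown for ACSS2 lies at -123 relative to a RefSeq start. The ACLY and ACSS2 stretches lie inside the gene positions given below, which begin farther upstream.

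Both enzymes that supply cytosolic acetyl-CoA had a lower mean in POLDIP2 KO, and their spread differed. ACLY (ENSG00000131473, chromosome 17, 41866917 to 41930542, minus strand) cleaves citrate exported from mitochondria into acetyl-CoA. It had 14908, 15862 and 14471 normalised counts in WT and 12714, 10745 and 11493 in POLDIP2 KO. Every POLDIP2 KO library was below the lowest WT library. This was a log2 fold change of -0.37 with a standard error of 0.11 (95% interval -0.63 to -0.12, limma adjusted p = 0.415). DESeq2 blocked by replicate number gave ACLY an adjusted p of 0.0189, at a size under the fold threshold.

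ACSS2 (ENSG00000131069, chromosome 20, 34872146 to 34927962, plus strand) makes acetyl-CoA from acetate and had the lowest mean per length of the 10 genes. It had 725, 691 and 567 normalised counts in WT and 851, 398 and 341 in POLDIP2 KO. The highest of all 6 libraries was thus POLDIP2 KO replicate 1, while the other POLDIP2 KO libraries lay below all WT libraries. The 95% interval of its log2 fold change of -0.43 was -1.23 to 0.37 (limma adjusted p = 1.00). It was -0.83 without POLDIP2 KO replicate 1 and -0.17 without POLDIP2 KO replicate 3, so single libraries set its size. GGT7 overlaps ACSS2 on the opposite strand.

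The enzymes of chain synthesis were separate between the lines. ACACA (ENSG00000278540, chromosome 17, 37084992 to 37406836, minus strand), the carboxylase that makes malonyl-CoA and the committed step of the pathway, had 6269, 6088 and 5328 normalised counts in WT and 4888, 4496 and 4731 in POLDIP2 KO. The groups did not overlap, and the POLDIP2 KO libraries spread by an SD of 197 around 4705. Its log2 fold change was -0.32 ± 0.10 (SE, n = 3 a group), with a limma adjusted p of 0.531.

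FASN (ENSG00000169710, chromosome 17, 82078338 to 82098294, minus strand), the multifunctional enzyme that assembles palmitate, had 18677, 31328 and 20178 normalised counts in WT and 12446, 15214 and 13523 in POLDIP2 KO. WT replicate 2 was far above the other libraries, and WT replicates 1 and 3 were still above all of POLDIP2 KO. The means were 23394 ± 6912 (SD, n = 3) and 13728 ± 1395. By limma, the log2 fold change of FASN was -0.73 ± 0.21 (SE), with an adjusted p of 0.406 that ran from 0.0992 to 0.903 over the limma alternatives. By DESeq2 FASN was called lower in POLDIP2 KO, with an adjusted p of 0.0326, and of 2.69e-06 when blocked. Without WT replicate 2 the limma log2 fold change was -0.50.

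SCD (ENSG00000099194, chromosome 10, 100347233 to 100364826, plus strand), which puts a double bond into palmitoyl-CoA and stearoyl-CoA to make monounsaturated chains, had the widest range of the 10 genes. Its normalised counts were 36314, 100767 and 51889 in WT, against 23512, 27955 and 37259 in POLDIP2 KO. POLDIP2 KO replicate 3 exceeded WT replicate 1, so the groups overlapped, although POLDIP2 KO was lower within each replicate number. SCD had a log2 fold change of -0.98 with a 95% interval of -1.86 to -0.11 (limma adjusted p = 0.683), and of -0.58 without WT replicate 2. DESeq2 did not call SCD, with an adjusted p of 0.0849, or 0.271 when blocked.

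Of the front-end desaturases, which make arachidonic and related polyunsaturated acids and lie on opposite strands of chromosome 11, FADS2 had the larger fold change, although the difference between the genes was not tested. FADS2 (ENSG00000134824, 61792980 to 61867354, plus strand) had 17409, 32165 and 24871 normalised counts in WT and 15101, 14145 and 17686 in POLDIP2 KO. WT replicate 1 lay just below POLDIP2 KO replicate 3, and the other libraries were in separate ranges. FADS2 had a log2 fold change of -0.63 ± 0.23 (SE, limma adjusted p = 0.652), and of -0.42 without WT replicate 2. DESeq2 gave it an adjusted p of 0.159, and of 0.0277 when blocked, where FADS2 was past both thresholds.

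FADS1 (ENSG00000149485, 61799627 to 61829318, minus strand) had 13096, 24237 and 21053 normalised counts in WT and 9636, 14950 and 17280 in POLDIP2 KO. Replicate 1 was the lowest library of each line, and POLDIP2 KO replicates 2 and 3 exceeded WT replicate 1. Its log2 fold change of -0.47 had a 95% interval of -1.17 to 0.22 (limma adjusted p = 0.981), which was -0.72 to -0.22 when blocked (adjusted p = 0.16). Its size was -0.23 when POLDIP2 KO replicate 1 was left out and -0.74 when WT replicate 1 was. Blocked DESeq2 gave an adjusted p of 0.00243 at a size under the fold threshold. FADS1 and FADS2 overlap each other, and FEN1 overlaps FADS2 on the same strand. The library kit marks strand, and how reads were assigned by strand is not given in the sources used here.

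ELOVL5 (ENSG00000012660, chromosome 6, 53267398 to 53349179, minus strand), which lengthens polyunsaturated chains, had 4900, 5019 and 5033 normalised counts in WT and 3932, 4138 and 4253 in POLDIP2 KO. It had the smallest SD of the 10 genes in WT, at 72.8, and no overlap between the lines. ELOVL5 had a log2 fold change of -0.28 ± 0.09 (SE, limma adjusted p = 0.515).

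ELOVL6 (ENSG00000170522, chromosome 4, 110045846 to 110199199, minus strand), which extends palmitate to stearate, had 4925, 6542 and 5849 normalised counts in WT and 2923, 4983 and 5055 in POLDIP2 KO. POLDIP2 KO replicate 1 was far below the rest, and the other POLDIP2 KO libraries were just above WT replicate 1. Its log2 fold change of -0.45 (95% interval -0.999 to 0.10, limma adjusted p = 0.903) became -0.19 without POLDIP2 KO replicate 1. When blocked the interval was -0.76 to -0.14 (limma adjusted p = 0.264), and blocked DESeq2 gave an adjusted p of 0.0401 at a size under the fold threshold.

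PNPLA3 (ENSG00000100344, chromosome 22, 43923792 to 43964488, plus strand), a lipid droplet protein that acts on stored triglyceride, had 508, 1100 and 798 normalised counts in WT and 606, 696 and 695 in POLDIP2 KO. The POLDIP2 KO libraries lay within the range of WT. PNPLA3 had a log2 fold change of -0.20 with a 95% interval of -0.84 to 0.44 (limma adjusted p = 1.00), and of 0.061 without WT replicate 2, so its direction rested on that library. SAMM50 overlaps PNPLA3 on the same strand.

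**Figure D1:**
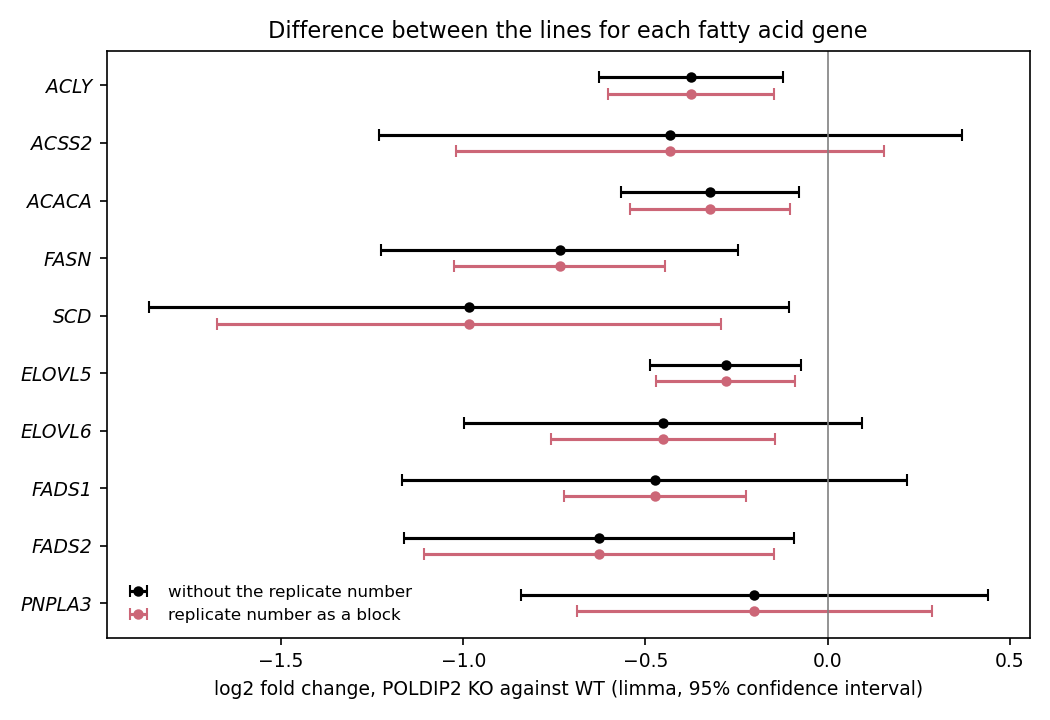
Log2 fold change of POLDIP2 KO against WT by limma (horizontal axis) for each fatty acid gene, with 95% confidence intervals, without the replicate number (black) and blocked by it (red). All 10 points lie below 0, and the intervals of ELOVL6 and FADS1 cross 0 only without the block.

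Per kilobase of the GENCODE canonical transcript, the 10 genes stood in the same order in both lines, from SCD through FADS2, FADS1, ACLY, FASN, ELOVL5, ELOVL6, ACACA and PNPLA3 to ACSS2. In WT the levels ran from 12010 ± 6412 normalised counts per kilobase (SD, n = 3) for SCD and 8028 ± 2387 for FADS2 to 291 ± 107 for PNPLA3 and 229 ± 28.8 for ACSS2. In POLDIP2 KO the same genes had 5639 ± 1338, 5061 ± 593, 242 ± 18.7 and 184 ± 97.0. Neighbours whose libraries overlapped in both lines were SCD and FADS2, FADS1 and ACLY, and PNPLA3 and ACSS2. The libraries of ACLY and FASN overlapped in WT alone, and those of FASN and ELOVL5 and of ELOVL6 and ACACA in POLDIP2 KO alone. By mean per length, the desaturases thus ranked highest in the group and the acetate enzyme lowest. The libraries did not separate FADS1 from ACLY or PNPLA3 from ACSS2. In replicate 1 of both lines, ACLY was above FADS1 and ACSS2 above PNPLA3. Together the 10 genes held 0.314%, 0.611% and 0.405% of the normalised counts in WT, and 0.223%, 0.262% and 0.295% of those of POLDIP2 KO. Every POLDIP2 KO share was below every WT share, and SCD made up the largest portion of the sum.

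Within replicate numbers, 28 of the 30 differences were lower in POLDIP2 KO. ACSS2 and PNPLA3 were the exceptions, both in replicate 1, where they were higher by 0.23 and 0.25 on the log2 scale. The other 8 genes were lower in all 3 pairs, against 15.7% of tested genes. The median difference of the 10 genes was -0.34 in replicate 1, -0.68 in replicate 2 and -0.31 in replicate 3, while 48.7%, 49.6% and 49.9% of all tested genes were lower. Replicate 2 held the 4 widest differences of all, -1.85 for SCD, -1.19 for FADS2, -1.04 for FASN and -0.79 for ACSS2. WT replicate 2 was the highest of the 6 libraries for 7 of the 10 genes, ACLY, FASN, SCD, ELOVL6, FADS1, FADS2 and PNPLA3, as it was for 16.1% of tested genes. Without that library, 3 of the 10 genes had an unadjusted limma p under 0.05, and without POLDIP2 KO replicate 2 also 3, against 6 with all libraries.

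The replicate number was also tested for these genes, with the line in the model. A limma F test for the replicate number gave an unadjusted p under 0.05 for 3 of them, FASN, ELOVL6 and FADS1, against 18.9% of tested genes. Their adjusted p values were 0.211, 0.18 and 0.0765, and none of the 10 genes was under 0.05, as 0.913% of tested genes were. Replicate 1 was the lowest library of both lines for 6 genes, FASN, SCD, ELOVL5, ELOVL6, FADS1 and PNPLA3, against 20.5% of tested genes. It was the highest of both lines for ACSS2 and ACACA, against 22% of tested genes. Replicate 1 is also where TAGLN was high in both lines, and FN1, a matrix protein of mesenchymal cells, had 78077, 21007 and 25817 normalised counts in WT and 95744, 30298 and 34562 in POLDIP2 KO. With both replicate 1 libraries left out, a choice made after seeing the data, all 10 genes were again lower, from -0.26 for ELOVL5 to -1.16 for SCD. The part of these mesenchymal genes in the differences was not tested.

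Across the 6 libraries, the log2 values of the 10 genes went together to an unequal degree. Of 45 pairs of genes, 42 correlated positively and 26 above 0.7, with a median Pearson r of 0.71 and a range of -0.35 to 0.97. These points share the line, the library and its depth. After centring within each line, 29 pairs were positive and 16 negative, with a median of 0.46 and a range of -0.95 to 0.94. The same pair correlations were not computed over all tested genes, so these counts have no background beside them. FASN (r = 0.964), SCD (r = 0.95) and FADS2 (r = 0.947) followed the mean of the other 9 most closely, and ACSS2 (r = 0.184) least. The mean scaled value was 0.12, 1.28 and 0.52 in WT and -0.78, -0.67 and -0.47 in POLDIP2 KO, so the lines were separate and WT replicate 1 was the nearest of WT to POLDIP2 KO.

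Among 11920 genes with a mean of at least 100 normalised counts, those whose log2 values over the 6 libraries were most like this mean included RUFY3, HSPB8, TASP1, CTH, SELENOK and 2 genes without a GENCODE symbol, ENSG00000282017 and ENSG00000256618, with r from 0.976 to 0.993. They were picked by rank as the upper end of 11920 values over 6 libraries, and the lower end reached -0.987. CTH, an enzyme of cysteine synthesis, had a log2 fold change of -1.02 (DESeq2 adjusted p = 0.0523, or 0.0407 when blocked), HSPB8, a small heat shock protein, of -0.47, and RUFY3 of -0.12. By list, the median r was 0.766 for the 20 sterol synthesis genes, 0.252 for 15 activation and triglyceride genes and 0.213 for 22 regulators of lipogenic genes, against -0.01 for all genes compared. For the 4 other lipid lists it lay between 0.00 and 0.168. The 7 fibroblast and mesenchymal genes compared had a median of -0.54, and all of them were negative, from -0.74 to -0.24. The part of those genes in the profile was not tested.

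Of the regulators of lipogenic genes, 23 of 24 were tested, 10 lower and 13 higher, with a median log2 fold change of 0.05 and 0 called by limma. INSIG1, the sterol sensor partner that is itself a target of SREBPs, was the 1 gene with an unadjusted p under 0.05. It had 4003, 6432 and 4475 normalised counts in WT and 2230, 1670 and 2283 in POLDIP2 KO, with no overlap. INSIG1 had a log2 fold change of -1.25 ± 0.21 (SE, limma adjusted p = 0.11), and DESeq2 called it lower (adjusted p = 8.74e-06). SREBF1, which encodes the SREBP most tied to fatty acid genes, had 3763 ± 1515 (SD) normalised counts in WT against 3902 ± 1028 in POLDIP2 KO. Its log2 fold change was 0.12 with a 95% interval of -0.69 to 0.92, which holds changes in either direction, and it ran from -0.26 to 0.37 when single libraries were left out. SREBF2, which encodes the SREBP most tied to sterol genes, had 15492, 19955 and 15475 normalised counts in WT and 13882, 13183 and 14184 in POLDIP2 KO, without overlap (log2 fold change -0.29, limma adjusted p = 0.805). For SREBF2 this size was -0.17 when WT replicate 2 was left out. SCAP, which escorts SREBPs to the Golgi, had a log2 fold change of 0.15 (95% interval -0.13 to 0.43), and NFYB, a subunit of NF-Y, of 0.23 (95% interval -0.06 to 0.52).

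The sterol synthesis genes, the other large group of SREBP targets, were lower for 20 of 20 genes with a median log2 fold change of -0.78. Of these, 19 had an unadjusted limma p under 0.05, against 3.47% of tested genes that passed and were lower, and 0 were called by limma. DESeq2 called 12 of them, against 0.944% of genes called lower, and blocked DESeq2 called 15, against 1.44%. The median of the sterol synthesis genes was further from 0 than that of the 10 fatty acid genes, and no test of the difference between the lists was made. IDI1, which makes the dimethylallyl unit, and CYP51A1, a lanosterol demethylase, had log2 fold changes of -1.10 and -0.98 (limma adjusted p = 0.0706 and 0.108).

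The remaining steps of fatty acid metabolism had medians near 0. Of the other fatty acid synthesis and elongation genes, 23 of 28 were tested, 12 lower and 11 higher, with a median log2 fold change of 0.00 and 0 called by limma. Paralogs of the 10 genes were among them: SCD5, a second stearoyl-CoA desaturase, had 1158 ± 130 (SD) normalised counts in WT against 1146 ± 61.7 in POLDIP2 KO. FADS3, a neighbour of FADS1 and FADS2, had 7310 ± 1071 and 7225 ± 1353. The elongases ELOVL2 and ELOVL7 were higher in POLDIP2 KO within each replicate number, with log2 fold changes of 0.30 and 0.26 and overlapping libraries. ELOVL1 and ELOVL4 had log2 fold changes of -0.001 and -0.22, also with overlapping libraries, and ELOVL3 was too low to be tested. ACACB, the mitochondrial acetyl-CoA carboxylase, had 551, 136 and 104 normalised counts in WT and 490, 137 and 187 in POLDIP2 KO, so that replicate 1 was high in both lines. CYB5A, the cytochrome that passes electrons to the desaturases, lay above WT in every POLDIP2 KO library, with 883 ± 23.9 and 1247 ± 84.9 (log2 fold change 0.50, limma adjusted p = 0.231). DESeq2 gave CYB5A an adjusted p of 0.00805, at a size under the fold threshold. AACS, which activates acetoacetate, lay below WT in every POLDIP2 KO library (log2 fold change -0.25, limma adjusted p = 0.741), and CBR4, a subunit of a mitochondrial fatty acid synthesis enzyme, lay above it (0.25, limma adjusted p = 0.926). The share of all tested genes that lay above WT in every POLDIP2 KO library was not computed.

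Of the fatty acid activation and triglyceride synthesis genes, 16 of 20 were tested, and DGAT1 and AGPAT5 were not analysed here. They were 9 lower and 7 higher with a median log2 fold change of -0.02 and 0 called by limma. DGAT2, an enzyme of the last step of triglyceride synthesis, had 84.1, 102 and 83.5 normalised counts in WT and 192, 176 and 172 in POLDIP2 KO. The POLDIP2 KO libraries were above all WT libraries (log2 fold change 1.00, limma adjusted p = 0.196), and DESeq2 called DGAT2 higher (adjusted p = 0.00901), a call that was lost when blocked by replicate number (adjusted p = 0.0735). ACSL1, which couples long-chain fatty acids to CoA, had 3044, 4941 and 3089 normalised counts in WT and 2533, 2323 and 2811 in POLDIP2 KO (log2 fold change -0.50, or -0.27 without WT replicate 2, limma adjusted p = 0.746). ACSL6, another acyl-CoA synthetase, was low, with means of 41.4 and 15.5 normalised counts and overlapping libraries.

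Of the fatty acid oxidation genes, all 30 were tested, 11 lower and 19 higher, with a median of 0.03 and 0 called by limma. CPT1A, the gate for long-chain entry into mitochondria, had 2443 ± 742 (SD) normalised counts in WT against 2623 ± 317 in POLDIP2 KO. EHHADH, a peroxisomal enzyme of β-oxidation, lay below WT in every POLDIP2 KO library (log2 fold change -0.59, limma adjusted p = 0.625), and blocked DESeq2 called it lower (adjusted p = 0.0337). HADHB, a subunit of the mitochondrial trifunctional protein, and DECR1, which prepares unsaturated chains for oxidation, lay above WT in each POLDIP2 KO library (log2 fold changes 0.24 and 0.25, limma adjusted p = 0.678 and 0.746). Of the lipid droplet and lipolysis genes, 13 of 21 were tested, 6 lower and 7 higher, with a median of 0.00 and 0 called by limma. PLIN2, the common droplet coat protein, had a log2 fold change of 0.00 (95% interval -0.54 to 0.55), and PLIN3, another coat protein, had 3666 ± 208 and 4433 ± 132 normalised counts without overlap (limma adjusted p = 0.577). The lipases and cofactor next in order of p, PNPLA8 and ABHD5, had log2 fold changes of -0.27 and -0.22 with overlapping libraries. Of the uptake and binding genes, 6 of 11 were tested, 4 lower and 2 higher, with a median of -0.09 and 0 called by limma. SLC27A6, SLC27A1 and SLC27A5, of the fatty acid transport protein family, had log2 fold changes of -0.75, 0.23 and -0.17 with overlapping libraries, and that of SLC27A1 turned to -0.04 without POLDIP2 KO replicate 1.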

How the data were processed

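The RNA-seq table held 1 column for each of the 6 libraries. Per the labels and the study's methods, the authors ran Salmon 1.8 on GRCh38, used tximport to obtain gene counts and applied DESeq2 1.34.0 size factors, and the deposited signal is this normalised count. The annotation release is not given in the sources used here. Gene positions and lengths are from GENCODE release 44, which named 34152 of the 37902 genes. Each column was divided by the value of 1 read, and 100% of values came out whole within 0.001, although in WT replicate 2 and POLDIP2 KO replicate 3 that value is close to 1, where this says little. The whole numbers served as recovered reads. The 10 genes had 343 to 100429 reads a library.

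Limma 3.58.1 (R 4.3.3) was run on log2(normalised count + 1), which understates changes of low genes, keeping genes whose mean was 10 or more, by lmFit, eBayes with trend and Benjamini-Hochberg adjustment. Genes were called at an adjusted p of 0.05 and a fold change of 1.5. The replicate number was tested with an F test in a model with the line. Exact permutation tests were two-sided. Alternatives were edgeR 4.0.16 and DESeq2 1.42.0 on recovered reads, other pseudocounts, filters and scalings, a replicate block and leaving out libraries. The steps were tested on simulated data. Centred values of same-numbered libraries correlated at 0.315, 0.137 and 0.129 over 14684 genes, for numbers 1, 2 and 3. Other combinations lay at -0.259 to 0.147, the highest being WT replicate 3 with POLDIP2 KO replicate 2. These values set number 1 apart and do not show that numbers 2 and 3 are matched. The block and the differences by number use the numbers as labelled, as an assumption. The rule for named genes took the 10 genes, POLDIP2, up to 3 genes of smallest p in each lipid list, SREBF1, SREBF2, INSIG1, SCAP and the 8 genes with the most similar profile. ACACB, SCD5, FADS3, ELOVL1, ELOVL2, ELOVL3, ELOVL4, ELOVL7, CPT1A, PLIN2, TAGLN, FN1, COL1A1 and the RPE genes named lie outside it. They were picked with their values in view. Some genes that the rule takes are not reported here. The 10 genes and the lists were chosen with earlier results of these data known.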

Additional observations from a re-analysis of the deposited data

How the results depend on the processing

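Over 19 alternatives for each of the 10 genes, 189 of 190 fold changes kept their direction and 186 also their side of the thresholds. Without 1 library, PNPLA3 ran from -0.49 (without WT replicate 1) to 0.061 (without WT replicate 2), where its direction turned. DESeq2 called FASN (-0.77) and, with the replicate block, FASN (-0.73) and FADS2 (-0.63), that is 1 and 2 of the 10 genes against 0. The cause was not tested. With the replicate block in limma, 8 of the 10 genes had an unadjusted p under 0.05 against 6, 0 were called, and 30 genes were called in all against 25. Besides COL1A1, the block changed no other limma call of a gene named here. Leaving out 1 library gave 3 to 7 of the 10 genes. Called genes in all were 250 by DESeq2, 390 by DESeq2 with the replicate block, 16 at a mean of at least 50, 0 to 12 without 1 library (691 to 1071 at an unadjusted p under 0.05), and 5 without both libraries of number 1, chosen after seeing the data. They were 0 without WT replicate 2 or 3 or POLDIP2 KO replicate 2 or 3, where fewer samples were fitted. For the replicate number, called genes went from 134 to 11 without the trend and to 0 to 18 without 1 library, an alternative also added after seeing the data, and the 10 genes with an unadjusted p under 0.05 from 3 to 1 and to between 2 and 5. Each of the 10 genes had at least 343 reads in every library.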
